A study of Mus musculus with 4 samples.

Results

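Secretoglobins are small secreted proteins that pair into disulphide-linked dimers around a pocket for lipids and steroids. In mice, the androgen-binding proteins (ABPs) of saliva are secretoglobin dimers of an alpha chain, encoded by Scgb1b genes, and a beta or gamma chain, encoded by Scgb2b genes. Most of these genes lie on chromosome 7 as neighbouring alpha and beta-gamma genes on opposite strands, and their products are studied as signals in social recognition. Other secretoglobins, among them Scgb1a1, Scgb3a1 and Scgb3a2, are best known from the airway epithelium.

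The expression of 6 such genes, Abpz, Abpa, Scgb1a1, Scgb1c1, Scgb3a1 and Scgb3a2, was examined in mouse SGs on 1-colour Agilent arrays. Their probes were found by an exact match of the gene name, which gave 8 of the 55681 probes and 6 of the 34844 gene names on the array. Abpz and Abpa are listed in RefSeq under the current symbols Scgb2b24 and Scgb1b27. The 6 genes were selected on the same log2 intensities, with their differences between the genotypes already known, so these differences are given as a description without a test.

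All RNA came from 10-week-old female mice of the labelled strain C57/BL6, with 2 arrays for Myd88-null mice (here Myd88-/-) and 2 for wild type mice (Myd88+/+). MyD88 is the adaptor through which most Toll-like receptors and the IL-1 receptors signal, and the mice of both genotypes descended from heterozygous parents of a null line that had been backcrossed to C57BL/6. The labels name SMGs together with SLGs as the tissue, whereas the study's text describes whole SMGs and 3 mice for each genotype. No label says whether an array holds RNA of 1 mouse or of a pool, so the spread between arrays may be partly technical.

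The values below are log2 processed intensities minus the log2 of the 75th percentile of their own array, so that 0 marks the 75th percentile itself. A value can be compared between arrays for the same probe but not between probes. Detection varied within each genotype, since 52.2% of probes passed the background limit on Myd88-/- array 1, 68.4% on Myd88-/- array 2, 74.1% on Myd88+/+ array 1 and 55.1% on Myd88+/+ array 2. The only Myd88 probe gave log2 values of 1.51 and 1.41 on the Myd88-/- arrays and 1.15 and 1.07 on the Myd88+/+ arrays. Which exons the null allele lacks is not given in the sources used here, so that this probe does not check the labels. Xist read -0.31, -0.11, -0.15 and 0.03 in the order Myd88-/- 1, Myd88-/- 2, Myd88+/+ 1 and Myd88+/+ 2, and none of the 4 Y-linked genes on the array (Ddx3y, Eif2s3y, Kdm5d and Uty) was well above background on all 4 arrays.

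Across the array, 31029 probes of 22317 genes were tested, that is, 1 genotype or both had them detected above background on each of its arrays. limma called 0 of them at an adjusted p under 0.05 (0%), the smallest adjusted p being 0.262, while 4430 (14.3%) had an unadjusted p under 0.05. With 2 arrays against 2, an exact permutation test of a single value cannot give a two-sided p below 0.333. The median log2 difference, Myd88-/- minus Myd88+/+, was 0.06 over all tested probes.

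Of the 8 probes of the 6 genes, 5 were tested, covering Abpz, Abpa, Scgb1a1 and Scgb1c1. In 4 of these 5 both Myd88-/- arrays lay above both Myd88+/+ arrays, compared with 31.6% of all tested probes, and in 1 both lay below, compared with 17.8%. One probe, that of Abpz, differed by more than 2-fold, as did 4.54% of all tested probes. Since the choice of genes used these differences, nothing is read from those shares.

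**Figure D1:**
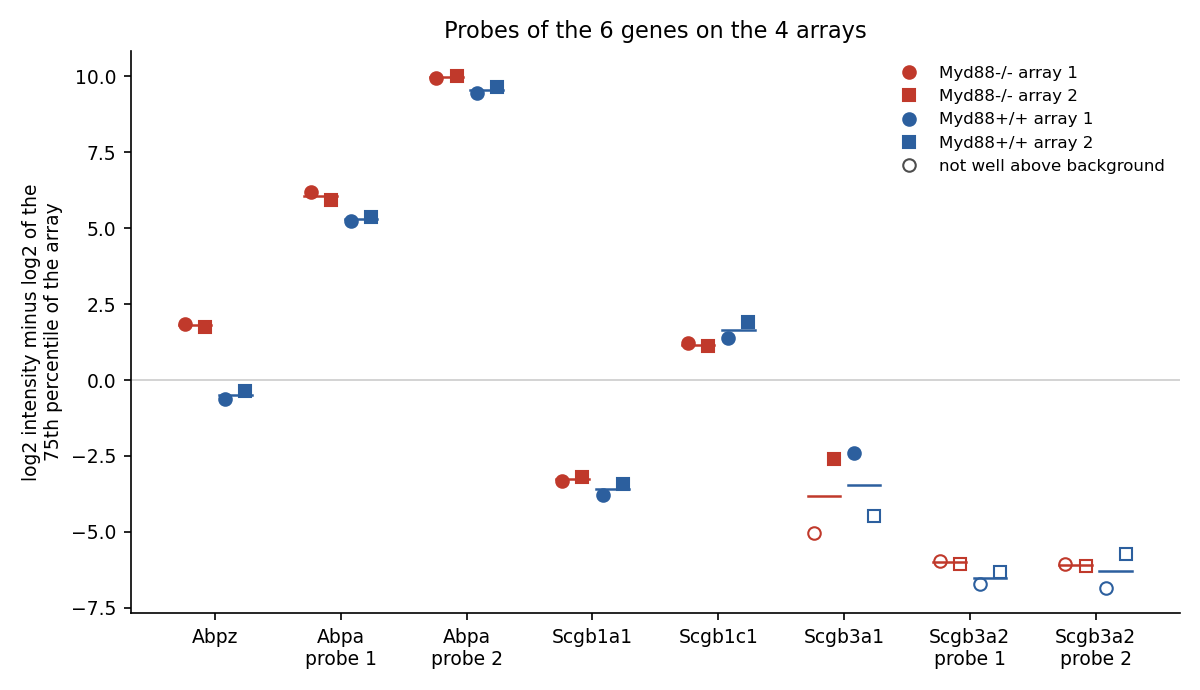
Log2 intensity relative to the 75th percentile of the array (vertical axis) for the 8 probes of the 6 genes. Each point is 1 array, circles and squares are arrays 1 and 2, horizontal lines are the means of 2 arrays, and open symbols were not well above background. The Abpz points of the genotypes lie 2.30 apart on average, and the Scgb3a2 points are open on every array.

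Abpz encodes a chain of the beta-gamma type and showed the largest difference of the 6 genes. Its probe lies on the minus strand of chromosome 7, from 34522383 to 34522442 (NCBI37/mm9), at base 272 of the transcript. The probe is shown because the gene stands on it alone, together with the probe of Gm4362 (Scgb2b3), with which it shared 30 of 42 aligned bases. Capitals mark bases of Gm4362 that differ from Abpz where the probes align.
Abpz: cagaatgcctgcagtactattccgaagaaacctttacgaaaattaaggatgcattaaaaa
Gm4362: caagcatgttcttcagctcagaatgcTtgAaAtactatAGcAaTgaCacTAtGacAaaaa

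The Abpz probe read 1.86 on Myd88-/- array 1, 1.73 on Myd88-/- array 2, -0.64 on Myd88+/+ array 1 and -0.37 on Myd88+/+ array 2. Both Myd88-/- arrays were thus high and both Myd88+/+ arrays low, with no overlap. The means were 1.80 ± 0.09 (SD, n = 2) and -0.51 ± 0.19 (SD, n = 2), a log2 difference of 2.30 with a standard error of 0.15, or 4.93-fold. Before scaling, the intensities were 931 and 787 against 206 and 208, which is 4.14-fold. Ordered by the difference, Abpz stood at place 44 of the 31029 tested probes. Leaving out any 1 array, the difference lay between 2.17 and 2.43, and the lowest value under any alternative was 1.98 with normexp background correction. The Gm4362 probe was not well above background on any array and was not tested.

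Abpa encodes the alpha chain that pairs with the beta and gamma chains of salivary ABP. It was measured by 2 probes, which cover overlapping stretches of the transcript and are shown because they gave differences of unlike size. The first was designed on an mRNA of an Abpa allele and has no genome position in the files, and the second lies on the plus strand of chromosome 7, from 34806831 to 34806890. The coding probe of Gm12776 (Scgb1b30), a second alpha gene, is shown with them. Capitals mark bases that differ from the second Abpa probe where the probes align.
Abpa probe 2: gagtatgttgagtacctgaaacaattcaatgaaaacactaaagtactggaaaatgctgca
Abpa probe 1: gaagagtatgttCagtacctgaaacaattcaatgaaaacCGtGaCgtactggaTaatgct
Gm12776: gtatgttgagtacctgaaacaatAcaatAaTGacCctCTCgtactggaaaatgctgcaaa

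The first Abpa probe shared 51 of 57 aligned bases with the second, hardly more than the 50 of 58 that the Gm12776 probe shared with it, so signal from related transcripts cannot be separated from that of Abpa. The first probe read 6.21 and 5.92 on the Myd88-/- arrays and 5.25 and 5.37 on the Myd88+/+ arrays. The second read 9.96 and 10.01 against 9.44 and 9.64. Neither probe overlapped between the genotypes, and the Myd88-/- arrays were the higher ones for both.

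The log2 difference was 0.75 with a standard error of 0.15 (1.68-fold) for the first Abpa probe and 0.44 with a standard error of 0.13 (1.36-fold) for the second. Before scaling, the second probe was at 256035 and 243800 against 223450 and 214535, which differ by 0.19 on the log2 scale. The remaining 0.25 came from the scaling by the 75th percentile, which was higher on the Myd88+/+ arrays (321 and 269) than on the Myd88-/- arrays (256 and 237). Under quantile normalization it was 0.20 and under cyclic loess 0.29.

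Scgb1a1 encodes the major secreted protein of airway club cells. Its probe, on the minus strand of chromosome 19 from 9158197 to 9158256, is printed at 10 spots of the array, of which 9 passed the background limit on each Myd88-/- array and 10 on each Myd88+/+ array. It read -3.34 and -3.20 on the Myd88-/- arrays and -3.78 and -3.43 on the Myd88+/+ arrays. The groups did not overlap, but Myd88-/- array 1 and Myd88+/+ array 2 lay close together. The log2 difference was 0.33 with a standard error of 0.17, and it was 0.16 without Myd88+/+ array 1 and 0.51 without Myd88+/+ array 2. Processed intensities before scaling were 23.7 to 26.9 on all 4 arrays.

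Scgb1c1 was the only tested gene of the 6 with a lower signal in Myd88-/- mice. Its probe lies on the plus strand of chromosome 7, from 148032087 to 148032146, far from the ABP genes. It read 1.23 and 1.11 on the Myd88-/- arrays and 1.38 and 1.90 on the Myd88+/+ arrays. The Myd88+/+ arrays differed more from each other than Myd88+/+ array 1 did from either Myd88-/- array. The log2 difference was -0.47 with a standard error of 0.22, and it was -0.21 without Myd88+/+ array 2 and -0.73 without Myd88+/+ array 1.

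The remaining secretoglobins, both known from the airway, were at or near the limit of detection. The 10 spots of the Scgb3a1 probe (chromosome 11, 49478489 to 49478548) passed the background limit in 0 cases on Myd88-/- array 1, 10 on Myd88-/- array 2, 10 on Myd88+/+ array 1 and 2 on Myd88+/+ array 2. Its values were -5.03 and -2.61 against -2.42 and -4.48. The high arrays, 1 of each genotype, were those with the larger shares of detected probes, and the genotypes overlapped. Neither of the 2 probes of Scgb3a2 on chromosome 18 (starting at 43926850 and 43926560) was well above background on any array, with values from -6.84 to -5.73.

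The wider family was then examined over every other probe named as a secretoglobin or androgen-binding protein gene. This gave 20 probes of 17 genes, all in the stretch of chromosome 7 that also holds Abpz and Abpa. With these, 22 probes of 19 genes span 2809 kb, from 32076450 to 34885780. Of the 20 probes, 15 were tested, covering 12 genes. Gm6504 entered only through the Myd88-/- arrays, where it was the higher, so it had to differ. In each of the other 14, which were detected on all 4 arrays, the Myd88-/- arrays lay above the Myd88+/+ arrays, compared with 31.6% of all tested probes.

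The median log2 difference of these 14 probes was 0.46, ranging from 0.33 to 3.68, beside 0.06 for all tested probes. limma called 0 of the 14 after adjustment (the smallest adjusted p being 0.262), and 13 had an unadjusted p under 0.05 in this direction, compared with 8.36% of all tested probes. How far the probes cross-hybridize is not known, and since they share 4 arrays they are not independent of each other.

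**Figure D2:**
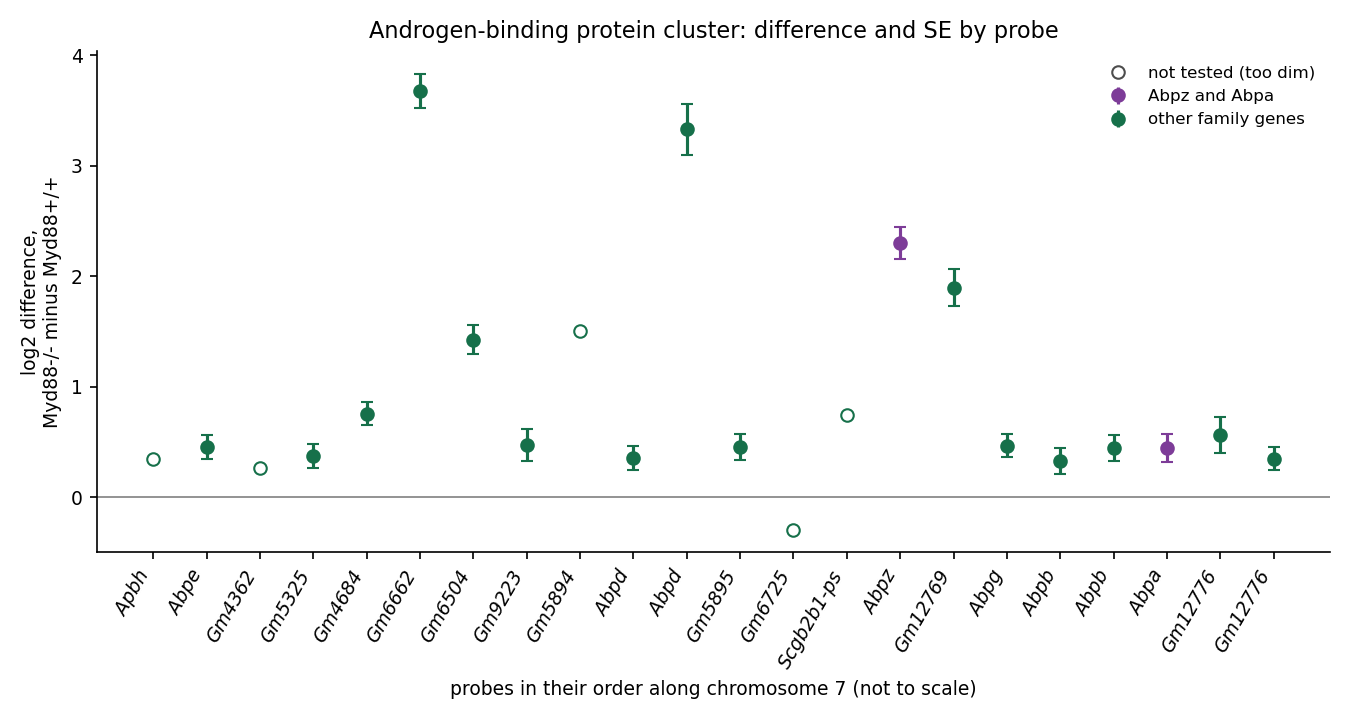
Log2 difference, Myd88-/- minus Myd88+/+ (vertical axis), of the 22 family probes in their order along chromosome 7 (horizontal axis, not to scale). Bars are standard errors from limma with 2 arrays per genotype, and open symbols were too dim to be tested. Gm6662, Abpd, Abpz, Gm12769 and Gm6504 each have a probe above a difference of 1, and the other tested probes lie between 0.33 and 0.76.

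The probes with the larger differences formed neighbouring pairs in part. Gm12769 (Scgb1b24), the alpha-type neighbour of Abpz on the opposite strand, has its probe 7.62 kb away. It read 1.42 and 1.22 on the Myd88-/- arrays and -0.73 and -0.43 on the Myd88+/+ arrays, with no overlap. The log2 difference was 1.90 with a standard error of 0.17 (limma adjusted p = 0.262), place 91 of all tested probes.

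Gm6662 (Scgb1b7), an alpha-type gene, gave the largest difference of the family. Its values were 0.62 and 0.74 on the Myd88-/- arrays and -3.15 and -2.85 on the Myd88+/+ arrays, a log2 difference of 3.68 with a standard error of 0.16 (limma adjusted p = 0.262), at place 7. Its beta-gamma neighbour Gm4684 (Scgb2b7), whose probe is 8.68 kb away, read 2.67 and 2.64 against 1.85 and 1.94. Gm4684 thus differed in the same direction, by 0.76 with a standard error of 0.11. With normexp background correction, the Gm6662 difference was 2.39.

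Abpd (Scgb2b20) encodes a beta-gamma chain and its 2 probes, only 0.051 kb apart, gave different results. The probe at 34149542 to 34149601 read 0.10 and 0.10 on the Myd88-/- arrays and -3.51 and -2.95 on the Myd88+/+ arrays. Its log2 difference was 3.33 with a standard error of 0.23 (limma adjusted p = 0.262), place 13, and 2.01 with normexp background correction. The probe at 34149432 to 34149491 read 10.78 and 10.88 against 10.47 and 10.48, a log2 difference of 0.36 with a standard error of 0.11, and 0.00 under quantile normalization. The files assign the latter probe to accessions of Gm5894 (Scgb2b19) as well.

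The Abpd probe with the large difference is shown beside the probes of other beta-gamma genes that align with it, because they tell how close the related transcripts are. Capitals mark bases that differ from Abpd where the probes align.
Abpd: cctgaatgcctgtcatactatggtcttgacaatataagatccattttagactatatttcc
Gm5894: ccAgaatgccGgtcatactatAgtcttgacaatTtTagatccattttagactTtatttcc
Gm6725: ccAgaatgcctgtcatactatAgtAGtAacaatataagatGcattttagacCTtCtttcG
Gm6504: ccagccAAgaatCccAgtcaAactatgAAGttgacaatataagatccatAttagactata

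The Abpd probe shared 54 of 60 bases with that of Gm5894 and 50 of 60 with that of Gm6725 (Scgb2b21), neither of which was well above background on any array. It shared 46 of 55 aligned bases with the probe of Gm6504 (Scgb2b15). Gm6504 read -3.37 and -3.14 on the Myd88-/- arrays and -4.65 and -4.71 on the Myd88+/+ arrays, where it was not well above background on either. This gave a signal at least 2.36-fold higher in Myd88-/- mice (limma adjusted p = 0.262), and the log2 difference of 1.43 fell to 0.42 with normexp background correction.

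The other tested family probes, 10 probes of 8 genes, had processed intensities above 50000 on every array, a limit chosen after the values had been seen. They belong to the alpha genes Gm5325 (Scgb1b3), Gm5895 (Scgb1b20) and Gm12776, and to the beta-gamma genes Abpb (Scgb2b27), Abpd, Abpe (Scgb2b2), Abpg (Scgb2b26) and Gm9223 (Scgb2b17). The Gm9223 probe was placed only 1.66 kb from that of Gm6504 on the same strand, so which of these genes it reads is not settled. With the second Abpa probe, these 11 probes had intensities from 65516 to 454258, below saturation, and log2 differences from 0.33 to 0.56. Before scaling the same differences were 0.08 to 0.31, and under quantile normalization 0.00 to 0.47.

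Abpe, at the upper end of intensity, read 10.74 and 10.79 on the Myd88-/- arrays and 10.28 and 10.33 on the Myd88+/+ arrays. The Abpg values were 10.14 and 10.18 against 9.68 and 9.71. Abpb, the beta chain beside Abpa, read 10.46 and 10.46 against 10.05 and 10.21 on its first probe and 8.27 and 8.35 against 7.80 and 7.93 on its second. In each the arrays separated by genotype, by less than 2-fold.

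High intensity alone went with a positive difference on these arrays. Of all 245 tested probes with an intensity above 50000 on every array, 78.0% had both Myd88-/- arrays above both Myd88+/+ arrays, with a median log2 difference of 0.15 and a middle range of 0.10 to 0.29. The 11 ABP probes, at 0.33 to 0.56, were counted among these. The part of the scaling in these differences was not tested beyond the alternatives given.

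**Figure D3:**
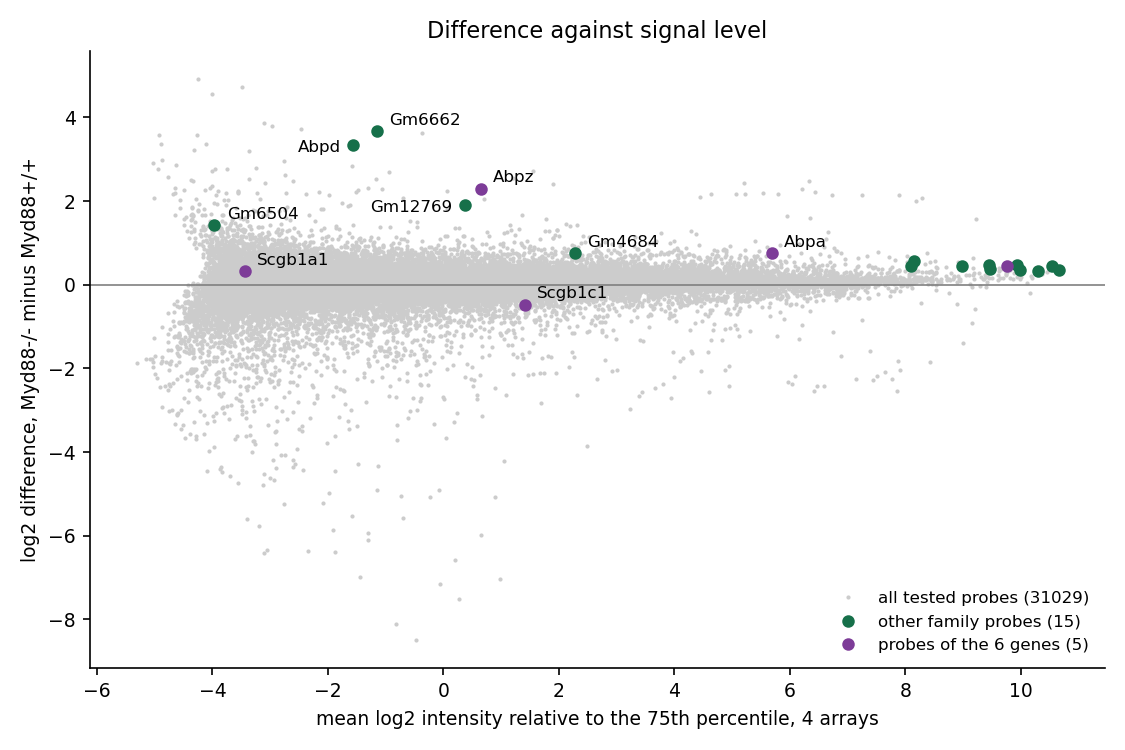
Log2 difference, Myd88-/- minus Myd88+/+ (vertical axis), against the mean log2 intensity over 4 arrays relative to the 75th percentile (horizontal axis) for all 31029 tested probes in grey, the 15 other family probes in green and the 5 tested probes of the 6 genes in purple. The high-intensity ABP probes sit at the right edge between 0.33 and 0.56, and Gm6662 and Abpd lie above 3 at low intensity.

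The 5 family probes that were not tested belong to Apbh (Scgb1b2), Gm4362, Gm5894, Gm6725 and Scgb2b1-ps. Apbh, an alpha-type gene, was well above background on Myd88-/- array 2 and Myd88+/+ array 1 only, the arrays with the larger shares of detected probes. The others were well above background on none.

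A further 26 tested probes lie in the same stretch of chromosome 7 under other names. Their median log2 difference was 0.23. Of these 26 probes, 3 differed by more than 2-fold, beside 4.54% of all tested probes, and are named here after their values were seen. The unannotated probe A_55_P2155261 (34158604 to 34158663), between the probes of Abpd and Gm5895, read -1.38 and -0.76 on the Myd88-/- arrays and -4.47 and -5.24 on the Myd88+/+ arrays. The probe of transcript ENSMUST00000165813 read -1.76 and -1.80 against -4.25 and -5.69, and it shared 42 of 56 aligned bases with the probe of the alpha gene Apbh. The unannotated probe A_55_P2022282 read 0.06 and -0.38 against -3.03 and -2.97. A_55_P2155261 and the probe of ENSMUST00000165813 were not well above background on Myd88+/+ array 2. Both thus entered the test only through the Myd88-/- arrays, where they were higher, so nothing is read from their separation. All 3 were higher in Myd88-/- mice without overlap, and each had a limma adjusted p of 0.262.

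The promoters of the family were searched for the half-site TGTTCT, on both strands (AGAACA on the other), which several steroid hormone receptors bind. RefSeq (GRCm38.p6) gave a promoter for 32 secretoglobin genes. In the 250 bases before the start, the half-site was found in 16 of 20 Scgb2b promoters and 3 of 9 Scgb1b promoters. It was found in 0 of the 3 others (Scgb1c1, Scgb3a1 and Scgb2a2) and in 16.1% of all 32851 promoters. Many Scgb2b promoters are close copies of each other around this site, so they are not independent cases. The full palindrome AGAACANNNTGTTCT was found in 0 of the 32 and in 3 of all promoters. The Abpz promoter is shown whole (chr7:33739296-33739545, minus strand), with the half-site in capitals.
Scgb2b24 (Abpz): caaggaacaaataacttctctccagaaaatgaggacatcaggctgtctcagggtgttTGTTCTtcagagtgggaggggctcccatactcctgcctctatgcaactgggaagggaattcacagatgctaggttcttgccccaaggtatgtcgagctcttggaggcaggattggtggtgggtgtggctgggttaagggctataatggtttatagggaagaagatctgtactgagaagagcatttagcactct

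The half-site of Abpz started 193 bases before the transcript start, and it lay within a stretch that other Scgb2b promoters share. The aligned 60 bases are given for Abpd (chr7:33366466-33366525), Gm4684 (chr7:31705904-31705963), Gm6504 (chr7:32829807-32829866), Gm5894 (chr7:33280486-33280545) and Abpg (chr7:33945127-33945186), all on the minus strand.
Scgb2b20 (Abpd): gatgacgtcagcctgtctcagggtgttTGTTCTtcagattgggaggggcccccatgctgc
Scgb2b7 (Gm4684): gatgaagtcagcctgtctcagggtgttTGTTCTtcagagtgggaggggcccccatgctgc
Scgb2b15 (Gm6504): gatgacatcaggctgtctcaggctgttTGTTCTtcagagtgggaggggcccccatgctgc
Scgb2b19 (Gm5894): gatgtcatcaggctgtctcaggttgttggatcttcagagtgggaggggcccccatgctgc
Scgb2b26 (Abpg): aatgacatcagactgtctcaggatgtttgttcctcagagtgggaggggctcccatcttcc

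These windows shared 52 to 55 of 60 bases with that of Abpz. Of the tested beta-gamma genes, Abpz, Abpd, Gm6504, Gm4684, Abpe and Gm9223 held the half-site, whereas Abpg and Abpb held none. Of the tested alpha genes with a promoter in RefSeq, Gm12769, Abpa and Gm12776 held none. Whether the half-site went with the size of the difference was not tested. Abpz was chosen on its difference, Gm6504 entered only through the Myd88-/- arrays, and the Abpd probes disagreed. A match of letters does not show binding.

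The genes of androgen synthesis and response were read next, since salivary ABP and the granular convoluted tubules are known to respond to androgens. Of 14 genes listed, 7 were tested, and limma called 0 of them, with 0 at an unadjusted p under 0.05. Their median log2 difference was 0.06, ranging from -0.11 to 0.61.

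Among the enzymes, Srd5a1, which makes dihydrotestosterone, differed by 0.05 with a standard error of 0.15. Srd5a2, with the same activity, differed by 0.61 with a standard error of 0.26 (limma adjusted p = 0.41), and Srd5a3 by 0.18 with a standard error of 0.13. The differences were 0.46 with a standard error of 0.35 for Cyp17a1, an enzyme of androgen synthesis, -0.11 with a standard error of 0.14 for Hsd17b12 and 0.06 with a standard error of 0.41 for the cholesterol carrier Star. None of these enzymes and carriers passed the test.

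The granular convoluted tubule genes, which encode growth factors, renin and kallikreins, were all tested (17 of 17). limma called 0 of them, with 0 at an unadjusted p under 0.05. Their median log2 difference was -0.14, and 12 of the 17 lay below 0. The largest were those of the kallikreins Klk1b16 (-0.75), Klk1b9 (-0.60) and Klk1b1 (-0.54). Both tubule and acinar marker genes of the SMG were well above background on all 4 arrays.

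Other carriers of chemical signals, the major urinary proteins (Mup) and other lipocalins, were read beside these. Of 28 such genes listed, 13 were on the array and 8 tested, with a median log2 difference of 1.86. limma called 0 of them. An unadjusted p under 0.05 was found for 5, all Mup genes with higher signal in Myd88-/- mice, compared with 8.36% of all tested probes. Mup21, among these 5, was not well above background on Myd88+/+ array 2. It thus entered the test only through the Myd88-/- arrays, where it was higher, and the median of 1.86 includes it. The lipocalin Lcn2 differed by -0.22, with overlapping arrays, and the odorant-binding protein gene Obp1a by 0.35. Mup5 read 7.24 and 7.88 on the Myd88-/- arrays and 5.53 and 4.65 on the Myd88+/+ arrays. The differences were 2.47 for Mup5, 2.44 for Mup3 and 2.15 for Mup20, each with a limma adjusted p of 0.262. The signal of these 3 Mup genes was highest on Myd88-/- array 2. Among the ABP probes the higher Myd88-/- array varied. It was array 1 for Abpz (1.86 against 1.73) and array 2 for Gm6662 (0.74 against 0.62).

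The regulators and receptors known from airway secretoglobins gave no common direction. Of 10 genes listed, 9 were tested, with a median log2 difference of 0.05. limma called 0, while 3 were higher and 1 was lower at an unadjusted p under 0.05. Of all tested probes, 14.3% had such a p in either direction, and 8.36% had it with Myd88-/- higher. Nkx2-1, the homeobox factor that drives airway secretoglobins, was not well above background on any array. Ehf (0.54, standard error 0.12), Spdef (0.44, standard error 0.13) and Marco (0.65, standard error 0.22), the latter a scavenger receptor, had both Myd88-/- arrays above both Myd88+/+ arrays. Cebpa (-0.42, standard error 0.12) and Cebpb (-0.48, standard error 0.17) had both below. Foxa1 (-0.04), Foxa2 (0.14), Cebpd (-0.03) and Elf3 (0.05) overlapped.

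**Figure D4:**
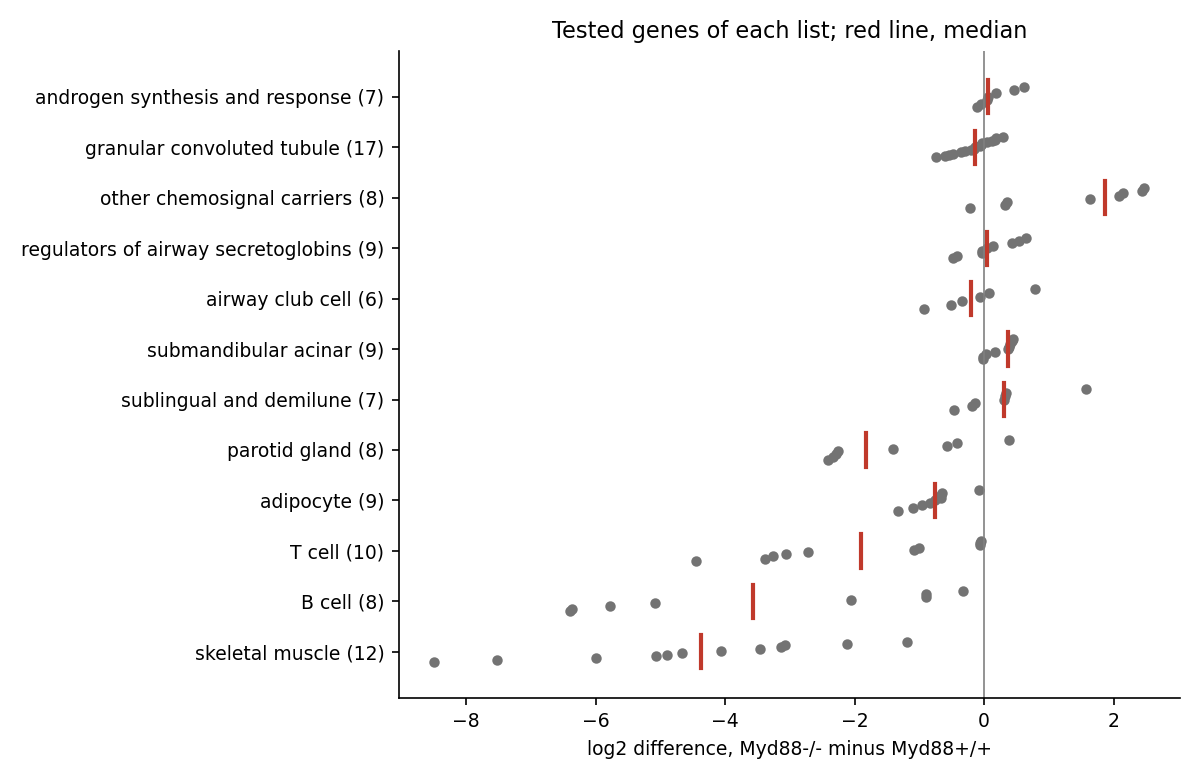
Log2 difference, Myd88-/- minus Myd88+/+ (horizontal axis), of each tested gene (grey point, brightest tested probe) in 12 gene lists (vertical axis, number of tested genes in brackets), with the median as a red line. The androgen list centres on 0.06 and the tubule list on -0.14, whereas the carriers centre on 1.86 and skeletal muscle on -4.36.

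Markers of skeletal muscle, fat, B cells, T cells and the parotid gland differed in level between the genotypes, although limma called 0 genes of any of these lists. In this bulk tissue, fewer cells of a type and less RNA per cell cannot be told apart. All 12 tested skeletal muscle genes, all 8 B cell genes, all 10 T cell genes and all 9 adipocyte genes had a lower mean in Myd88-/- mice, with medians of -4.36, -3.57, -1.90 and -0.76, and 40.6% of all tested probes had a difference below 0. At an unadjusted p under 0.05, 11 of the 12, 7 of the 8, 5 of the 10 and 3 of the 9 were lower. Of all tested probes, 14.3% had such a p in either direction. Detection on all 4 arrays held for 7, 5, 6 and 9 of these genes, and the others entered the test through 1 genotype or with 1 array missing. Of the 10 T cell genes, 7 had both Myd88-/- arrays below both Myd88+/+ arrays, compared with 17.8% of all tested probes, and the others overlapped. Plasma cell genes gave no common direction, with 3 of the 6 tested higher, 3 lower and a median of -0.04. Of 8 parotid genes tested, 7 were lower, with a median of -1.83, and 4 were lower at an unadjusted p under 0.05. The median values of this list were 7.44 and 5.50 on Myd88-/- arrays 1 and 2, and 8.87 and 8.61 on the Myd88+/+ arrays. The Myd88-/- arrays thus differed more from each other than Myd88-/- array 1 did from either Myd88+/+ array. Summed intensities of the muscle list were 872 to 930 on the Myd88-/- arrays and 9703 to 45734 on the Myd88+/+ arrays, those of the B cell list 780 to 868 and 3108 to 6674, and those of the T cell list 2931 to 3286 and 4787 to 7717. The B cell marker Ms4a1 was not well above background on either Myd88-/- array. By flow cytometry, the study found more B cells in SMGs of male Myd88-/- mice than of male Myd88+/+ mice. It also counted more IgA+ plasma cells there. The B cell RNA here, from female mice and from SMGs labelled together with SLGs, was lower instead. RNA of a whole tissue is not a count of cells, and the reason was not tested.

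For the adipocyte list the sums were 55320 to 86948 on the Myd88-/- arrays and 135149 to 163054 on the Myd88+/+ arrays, and for the parotid list 484768 to 789110 and 985548 to 1205350. Of the 9 submandibular acinar genes 7 were higher and 2 lower, with a median of 0.37 and sums of 713925 to 755672 and 646276 to 729679. Of the sublingual genes, 4 of 7 were higher, with a median of 0.30. The 6 airway club cell genes tested had a median of -0.20, 4 of them lower. The part of tissue composition in the ABP differences was not tested.

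Genes whose 4 values followed those of a member most closely were found by the distance between profiles, after subtracting each probe's own mean, among 27940 probes well above background on all 4 arrays. For Abpz the nearest were an intergenic RNA probe on chromosome 16 (distance 0.19), an unannotated probe on chromosome 6 (0.29) and its neighbour Gm12769 (0.41). For Abpa they were Hsbp1l1 (0.020), an intergenic RNA probe on chromosome 6 (0.030) and Entpd8 (0.032). For Scgb1a1 they were Rn18s, the 18S ribosomal RNA (0.017), an intergenic RNA probe on chromosome 2 (0.025) and TC1702006 (0.037). For Scgb1c1 they were ENSMUST00000141160 (0.032), Ank2 (0.044) and AK029402 (0.069). With only 4 arrays, a small distance is a description of the values.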

How the data were processed

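Cy3-labelled cRNA was hybridized to 1-colour Agilent arrays, and the authors deposited each array's scanner output (Feature Extraction 10.7.3.1). The processed signal in it is an intensity after background subtraction, with a surrogate for dim spots, and arrays were not normalized to each other. Uncorrected spot means and local background medians, also deposited as intensities, served the normexp alternative, and deposited flags of 0 or 1 marked detection, saturation and outliers. All 62976 spots of each of the 4 arrays were read. The arrays lie on 1 slide from 1 scan, and their number limits the precision. The 4 value columns of a table covering the whole series match no single sample by name and were left out.

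Log2 processed intensity was taken minus the 75th percentile over the 59305 non-control spots of the array. Outlier spots (99 to 131 per array) were left out, no spot was saturated, and replicate spots were averaged per probe. A probe was well above background where a share of over 0.5 of its spots was. It was tested when this held on both arrays of at least 1 genotype. Differences between genotypes were fitted by lmFit and eBayes (limma 3.58.1, R 4.3.3), with Benjamini-Hochberg adjustment over all tested probes at 0.05, and tables were made with pandas 2.3.3 in Python 3.11.15. An "at least" fold takes, for each array of the dim group, the higher of its value and its lowest intensity that passed as detected. Probe positions are those of the files (NCBI37/mm9), and 27 of 28 family probes matched a RefSeq symbol (GRCm38.p6). Probes were aligned without gaps. The procedure was tested on simulated data.

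The members and gene lists were chosen with earlier results of these data known. Genes named are the members, all other secretoglobin and androgen-binding protein probes tested, all tested genes of the androgen and airway regulator lists, the 3 largest differences of the tubule and carrier lists, Myd88 and sex genes, the 3 nearest profiles per member, and genes that mark a list. A gene of these lists is not reported here. The alternatives numbered 17: normexp (offset 50), 4 other scalings, 2 other filters, outlier spots kept, the brightest probe per gene, trended robust moderation, the methods' t-test, the replicate number as a block, crossed numbers as a block, and each array left out.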

Additional observations from a re-analysis of the deposited data

How the results depend on the processing

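limma called 0 probes in the main analysis and also under 13 of the 17 alternatives. It called 130 with normexp background correction, 496 with scaling by the median and 374 with trended robust moderation, and the methods' t-test called 1 after adjustment. Among the 15 tested family probes outside the 6 genes, 3 were called with normexp and 3 with median scaling, in each case Abpd (34149542), Gm12769 and Gm6662, and 6 with trended robust moderation, which added Abpe, Abpg and Gm4684. Of the genes in the androgen, tubule, carrier and regulator lists, 3, 4 and 1 were called under the same alternatives. With the replicate number as a block 0 were called (2681 at an unadjusted p under 0.05). The block cannot alter a difference in this balanced design, so the members' count of positive differences had to stay at 4. Same-numbered arrays deviated in opposite directions (r = -0.38), and with crossed numbers as the block 0 were called (5204 unadjusted). With each array left out in turn, 4 of 5 member probes stayed positive. This was fixed in advance, because none of the 5 overlapped between the genotypes. No member or family difference took the opposite sign under any alternative, although that of the second Abpd probe was 0.00 under quantile normalization. Only normexp, the other scalings and the kept outlier spots could have changed a sign. Of 84 recomputed member values, 81 stayed within the spread between replicates. Many of the 81 could not move, because a change of filter, moderation, test or block leaves the difference itself as it was. The 3 that did not were Abpz with normexp (1.98) and the second Abpa probe under quantile normalization (0.20) and cyclic loess (0.29). Dim genes, Scgb3a1, Scgb3a2 and Apbh among them, could not be compared because their signal was not well above background on enough arrays.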
